A study of Mus musculus with 4 samples.

Results

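A set of 10 genes of the Bcl2 family was followed in progenitors and young neurons of the embryonic mouse cortex, by taking the rows of the count table whose symbol was Bcl2, Bcl2l1, Mcl1, Bax, Bak1, Bbc3, Bcl2l11, Bid, Bad or Pmaip1. All 10 were found among 23240 rows, each on 1 row, and all 10 passed the filter on low counts. The embryos carried 2 reporters, Nestin-GFP from a heterozygous parent and DCX-mRFP from a homozygous one, and were taken at embryonic day 15.5. Green cells without red signal made up the neural progenitor cell (NPC) pool, while the neuron pool was green and red. Each group had 2 duplicate RNA-seq libraries of total RNA, with 52611841 to 55615151 counts per library. The labels do not say whether duplicates came from separate litters. The p-values here thus reflect the spread of these 4 libraries alone, estimated in large part across genes. That spread may be purely technical.

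Bcl2 family proteins decide whether the outer membrane of the mitochondrion stays closed. Guardians such as BCL2, BCL-XL (from Bcl2l1) and MCL1 keep it closed, the effectors BAX and BAK1 open it and let cytochrome c out to start caspase activation, and BH3-only proteins block guardians or activate effectors. Many cells of the developing cortex die while it forms, and loss of Bcl2l1 or Mcl1 is known to kill neurons or progenitors of the embryonic brain. Bcl2l1 and Bak1 are also known to be spliced in more than one way, but the table gives 1 value per gene, so exon use was not analysed here.

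The markers of the 2 sorts differed in the direction of their labels, but neither sort was free of the other's markers. Both sorts also held RNA of other cell types, at higher levels in the NPC sort. All 8 radial glia markers were higher in NPCs and 7 of 8 young neuron markers were higher in neurons. Markers of 5 other cell types were higher in NPCs, and none was at 0 in any library. Summed over each list, in CPM (counts scaled to a common library size with TMM factors), 8 endothelial markers were at 223 to 226 CPM in NPCs and 7.73 to 7.88 CPM in neurons, Cldn5 and Cd34 among them. The 6 oligodendrocyte precursor markers were at 181 to 186 against 2.96 to 3.84 CPM, Pdgfra and Olig1 among them. The 6 pericyte markers were at 163 to 169 against 6.23 to 6.51 CPM, Rgs5 and Abcc9 among them. Cspg4 is in both the pericyte and the oligodendrocyte precursor list and counts in both sums. The 8 microglia markers were at 53.3 to 54.8 against 28.5 to 29.6 CPM, with P2ry12 among them, and the 6 erythroid markers at 955 to 1158 against 158 to 161 CPM, globins among them. The part of these cells in any difference below was not tested. In such sorted pools, fewer cells of a type and less RNA per cell cannot be told apart. The radial glia markers summed to 2922 to 2947 CPM in NPCs and still to 588 to 610 CPM in neurons. The young neuron markers summed to 2833 to 2867 CPM in NPCs and to 10275 to 10422 CPM in neurons. How far this mixing changed the differences below was not tested.

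Of the 10 genes, 8 differed between neurons and NPCs, 4 higher in neurons (Bcl2l1, Bbc3, Bid and Pmaip1) and 4 higher in NPCs (Bcl2, Mcl1, Bak1 and Bcl2l11). Of 15292 genes tested, 72.6% passed the same threshold, an edgeR adjusted p of 0.05, so a count of 8 of 10 is near the background. The 4 genes higher in neurons stood beside 35.8% of all genes, and the 4 higher in NPCs beside 36.9%. A stricter test, for changes beyond 1.5-fold, was passed by 6 of the 10 genes and by 35.2% of all genes. Those 6 were Bcl2l1, Bbc3, Bid and Pmaip1, higher in neurons, and Bak1 and Bcl2l11, higher in NPCs. The median size of the log2 change was 0.87 over the 10 genes and 0.50 over all genes tested, and the median signed change was 0.07 and -0.02. The guardians and the BH3-only genes each had members called in both directions.

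**Figure D1:**
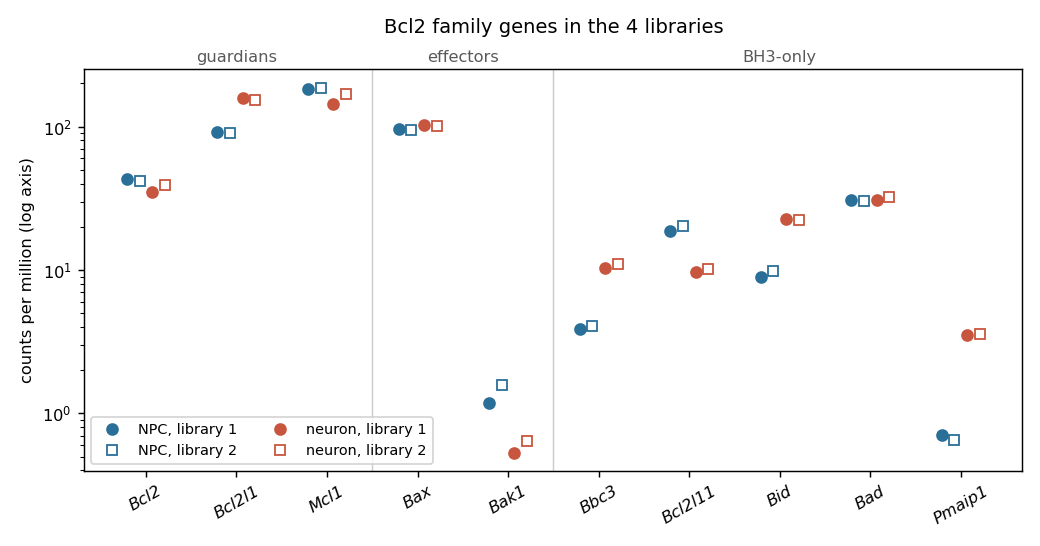
Expression of the 10 Bcl2 family genes in CPM on a log axis, with 1 point for each of the 4 libraries and genes grouped by role. The groups do not overlap for 9 of the 10 genes, beside 86.0% of all genes tested, and only the Bad points overlap.

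The guardians moved apart. Bcl2l1, whose long protein BCL-XL is a main survival factor of young neurons, was at 91.2 and 89.6 CPM in NPCs and at 157 and 152 CPM in neurons. Both neuron libraries lay far above both NPC libraries. The log2 change was 0.77 ± 0.05 (standard error, 2 libraries per group), a 1.71-fold rise with a 95% interval of 1.58 to 1.85 (edgeR adjusted p = 1.1e-09).

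Mcl1, which encodes a short-lived guardian needed by cortical progenitors, was at 183 and 187 CPM in NPCs and at 144 and 168 CPM in neurons. The groups did not overlap, but the neuron libraries differed from each other by more than the higher of them did from the NPCs. The log2 change was -0.25 ± 0.07, with a 95% interval of 0.765-fold to 0.928-fold (edgeR adjusted p = 0.0029). It was -0.13 without neuron replicate 1 and -0.35 without neuron replicate 2.

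Bcl2, the founding guardian, was at 43.2 and 41.9 CPM in NPCs and at 35.2 and 38.9 CPM in neurons. The lower NPC library and the higher neuron library were close to each other. The log2 change was -0.20 ± 0.07 (edgeR adjusted p = 0.016). This call was lost without NPC replicate 1 (-0.18), NPC replicate 2 (-0.22) or neuron replicate 1 (-0.12), fits that leave 1 library in a group. Neither Mcl1 nor Bcl2 passed the test for a change over 1.5-fold.

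Of the effectors, Bak1 was called and Bax was not. Bax was at 95.4 and 94.6 CPM in NPCs and at 103 and 101 CPM in neurons. The neuron libraries lay slightly above the NPC libraries, but the log2 change of 0.10 ± 0.05 did not pass (edgeR adjusted p = 0.11), and its 95% interval ran from 0.99-fold to 1.16-fold. Scaling by library size alone gave -0.11, the opposite sign, and without neuron replicate 2 the change was 0.12.

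Bak1, the other effector, had few counts. It had 68 and 94 counts in the NPC libraries and 26 and 33 in the neuron libraries, which is 1.18 and 1.58 CPM against 0.532 and 0.639 CPM. Counting error alone gives exact 95% intervals of 0.917 to 1.5 and 1.27 to 1.93 CPM in NPCs, and of 0.348 to 0.780 and 0.440 to 0.898 CPM in neurons, so the intervals of the groups do not overlap. Bak1 was 2.35-fold lower in neurons, with a log2 change of -1.23 ± 0.30 (edgeR adjusted p = 0.0016). In GENCODE, 25.7% of the exon bases of Bak1 overlap exons of Ggnbp1 on the opposite strand. Ggnbp1 had 94.6 and 102 counts in NPCs and 58.7 and 61.0 in neurons, and since the use of strand is not given, reads of these 2 genes cannot be told apart in the overlap.

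Among the BH3-only genes, 3 rose, 1 fell and 1 did not pass. Pmaip1, which encodes NOXA, a partner that blocks MCL1, had the largest change of the 10 genes. It had 41 and 39 counts in NPCs and 172 and 184 counts in neurons, or 0.712 and 0.654 against 3.52 and 3.56 CPM. The neuron libraries were close to each other and several times above the NPC libraries. The rise was 5.18-fold, with a 95% interval of 3.76 to 7.13 (log2 change 2.37 ± 0.22, edgeR adjusted p = 4.0e-08). The change of Pmaip1 was larger in size than that of 91.4% of genes tested.

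Bbc3, which encodes PUMA, a BH3-only protein that binds all guardians, was at 3.89 and 4.07 CPM in NPCs and at 10.3 and 10.9 CPM in neurons. The rise was 2.66-fold (log2 change 1.41 ± 0.12, edgeR adjusted p = 1.5e-08). Bid, whose product is cut by caspase-8 to activate the effectors, was at 8.93 and 9.77 CPM in NPCs and at 22.7 and 22.2 CPM in neurons. It rose 2.40-fold (log2 change 1.26 ± 0.09, edgeR adjusted p = 1.6e-09). For Bbc3 and Bid the lower neuron library was more than 2 times the higher NPC library.

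Bcl2l11, which encodes BIM, a BH3-only protein known for neuronal death after loss of trophic support, went the other way. It was at 18.8 and 20.2 CPM in NPCs and at 9.67 and 10.2 CPM in neurons. It fell 1.96-fold, with a log2 change of -0.97 ± 0.09 (edgeR adjusted p = 5.9e-08), and the duplicates were close to each other in both groups. Bak1 and Bcl2l11, like Bcl2 and Mcl1, were higher in NPCs, where the markers of 5 other cell types were also higher. The part of those cells in these differences was not tested.

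Bad, whose product is held inactive by phosphorylation, was at 30.8 and 30.3 CPM in NPCs and at 30.6 and 32.0 CPM in neurons. The groups overlapped, and the log2 change of 0.04 ± 0.07 did not pass (edgeR adjusted p = 0.66). Its 95% interval ran from 0.93-fold to 1.13-fold. With library size only the change was -0.17 and passed as higher in NPCs (adjusted p = 0.034). Exons of Gpr137, on the opposite strand, overlap 21.9% of the exon bases of Bad, and Gpr137 had 926 and 1020 counts in NPCs and 1570 and 1435 in neurons. Over all 10 genes, the groups did not overlap for 9, beside 86.0% of all genes tested.

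**Figure D2:**
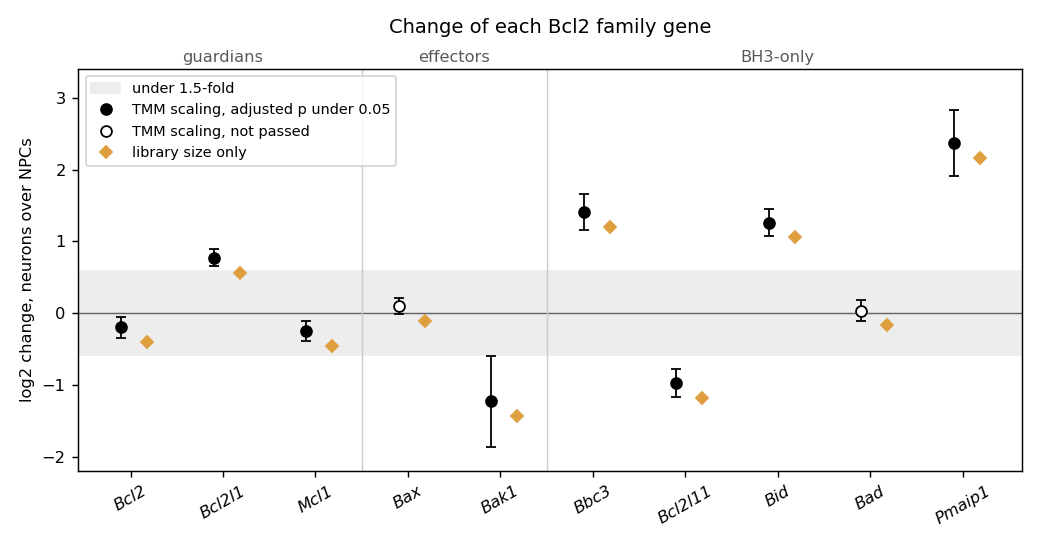
Log2 change of each gene, neurons over NPCs. Circles with 95% intervals are from the edgeR fit with TMM scaling, filled where the adjusted p was under 0.05, diamonds are with library size as the only scaling, and the grey band marks changes under 1.5-fold; Pmaip1 is highest at 2.37, Bak1 lowest at -1.23, and Bax and Bad change sign between the scalings.

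**Figure D3:**
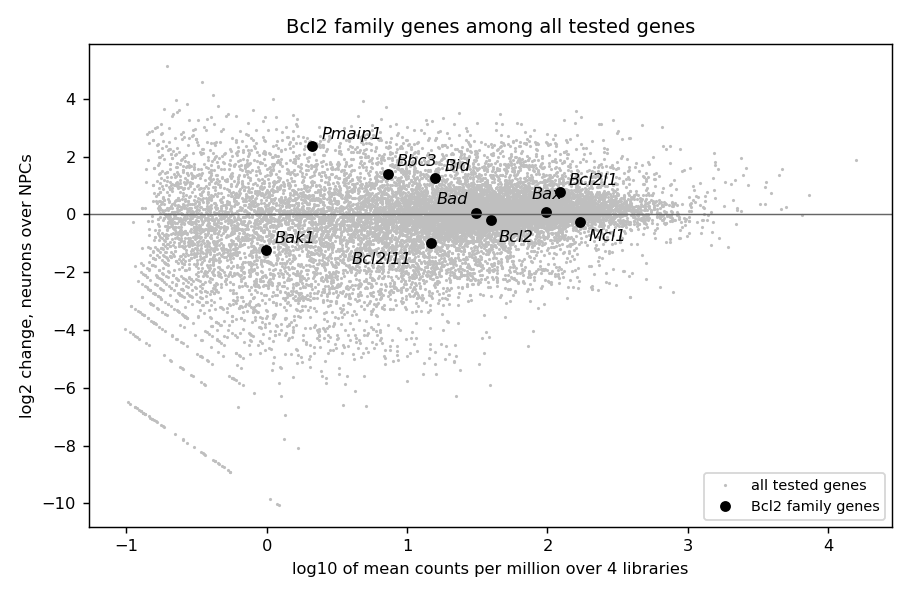
Log2 change, neurons over NPCs, against the log10 of mean CPM for all 15292 tested genes (grey) and the 10 Bcl2 family genes (black). The family lies within the cloud of all genes, with Pmaip1 the highest of the 10 at 2.37 and with Bax, Bad, Bcl2 and Mcl1 near 0.

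Library scaling set the sign of the smallest changes. TMM factors put the median log2 change of all genes at -0.02, and library size alone put it at -0.23. The 8 called genes kept their sign under each alternative in which they were tested. The changes of Bcl2 and Mcl1 grew to -0.41 and -0.45 with library size only.

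To set levels of the 10 genes in order, CPM were divided by exon length in kilobases (kb), from GENCODE gene models of a later build than the submitters' mm9. In NPCs the order of mean levels was Bax at 71.1 ± 0.463 CPM per kb (SD, n = 2), Mcl1 at 54.1 ± 0.964, Bcl2l1 at 19.7 ± 0.244, Bad at 12.8 ± 0.152 and Bcl2 at 4.65 ± 0.0965 CPM per kb. Bid at 3.82 ± 0.243, Bcl2l11 at 2.83 ± 0.145, Bbc3 at 1.98 ± 0.0638, Bak1 at 0.577 ± 0.117 and Pmaip1 at 0.250 ± 0.0152 CPM per kb followed. Each gap between neighbours was wider than their SDs added together. Bax thus had the highest level per length in the family, and the BH3-only genes other than Bad lay below the guardians. In GENCODE, 14.4% of the exon bases of Bax overlap Gm45808 on the same strand. For Bcl2, 6.09% overlap D630008O14Rik on the opposite strand. Neither overlapping gene has a row of counts, and their part in these levels was not tested.

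In neurons Bax was again first, at 76.1 ± 1.04 CPM per kb, followed by Mcl1 at 45.6 ± 4.99, Bcl2l1 at 33.7 ± 0.770 and Bad at 13.1 ± 0.422 CPM per kb. Bid at 9.16 ± 0.152 and Bbc3 at 5.26 ± 0.234 CPM per kb now stood above Bcl2 at 4.05 ± 0.292 CPM per kb. Bcl2l11 at 1.44 ± 0.0577, Pmaip1 at 1.30 ± 0.0109 and Bak1 at 0.245 ± 0.0317 CPM per kb were last. These gaps too were wider than the summed SDs. With the longest protein-coding transcript as the length, Bcl2l1 at 60.2 CPM per kb stood above Mcl1 at 45.6 CPM per kb in neurons, and no other pair of neighbours changed order in either group. That length raised Bcl2l1 in NPCs to 35.2 CPM per kb and Bad to 19.9 in NPCs and 20.4 CPM per kb in neurons, so the levels depend on the gene model by more than their SDs.

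Ratios within a library do not depend on the scaling between libraries, so they were used to set the guardians against the effectors and against each other. No test of the ratios was made, and a two-sided exact permutation test of 2 libraries against 2 could not give a p below 0.333. The log2 ratio of Bcl2l1 to Bax counts was -0.07 and -0.08 in NPCs and 0.61 and 0.59 in neurons, a rise of 0.67 with a tight pair in each group. That of Bcl2 to Bax went the other way, from -1.14 and -1.17 in NPCs to -1.55 and -1.37 in neurons, and that of Mcl1 to Bax from 0.94 and 0.98 to 0.48 and 0.74. Within the guardians, the log2 ratio of Bcl2l1 to Mcl1 was -1.0 and -1.06 in NPCs and 0.13 and -0.14 in neurons. It thus rose by 1.02, and that of Bcl2l1 to Bcl2 rose by 0.97, from 1.08 and 1.10 to 2.16 and 1.97. All 3 guardians rose against Bak1, by 2.00 for Bcl2l1, 1.02 for Bcl2 and 0.97 for Mcl1 on the log2 scale. The Bak1 ratios rest on the few counts of Bak1.

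**Figure D4:**
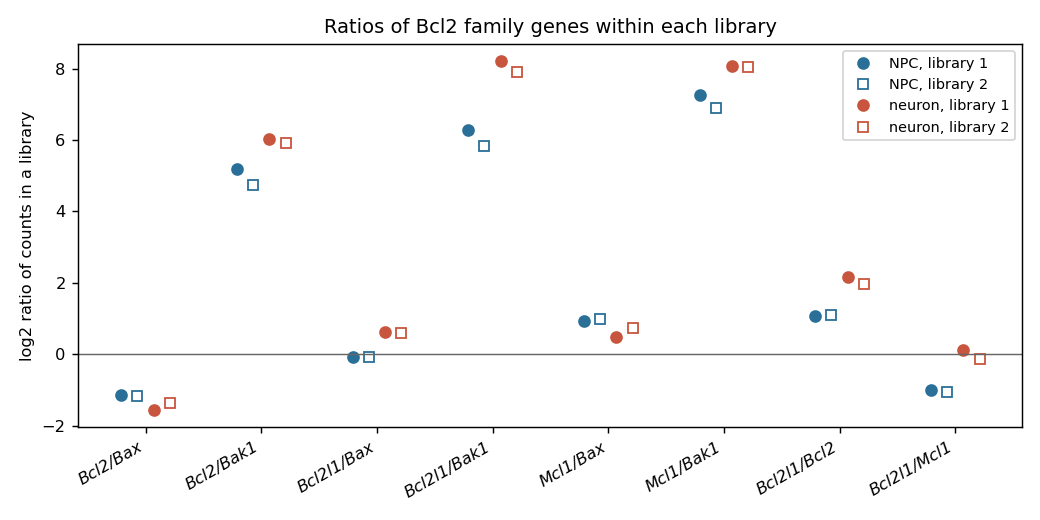
Log2 ratio of the counts of 2 Bcl2 family genes within each of the 4 libraries. The neuron and NPC libraries do not overlap for any of the 8 pairs, and Bcl2 over Bax and Mcl1 over Bax are the pairs that are lower in neurons. The pairs share genes, so they are not separate results. Of single genes tested, 86.0% do not overlap between the groups, and no such share was computed for ratios of other genes.

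The start-site windows of 3 BH3-only genes are printed here because these genes changed by about 2-fold or more and in both directions, 2 upward and 1 downward. Each is 300 bases from RefSeq (build GRCm38.p6), from 250 bases before to 50 after a start site, written 5′ to 3′ on the gene's strand. Capitals mark GTAAACA, the core letters bound by FoxO factors, on either strand in Bcl2l11 and Bbc3, and the GC box GGGCGG in the window of Bid, which holds no FoxO match. The windows are chr2:128125788-128126087 (plus strand) for Bcl2l11, chr7:16310011-16310310 (plus strand) for Bbc3 and chr6:120916775-120917074 (minus strand) for Bid. RefSeq gives 2 windows for Bcl2l11, 3 for Bbc3 and 1 for Bid, and for Bcl2l11 and Bbc3 the window printed is the one with the FoxO match, which the others of these genes lack.
Bcl2l11: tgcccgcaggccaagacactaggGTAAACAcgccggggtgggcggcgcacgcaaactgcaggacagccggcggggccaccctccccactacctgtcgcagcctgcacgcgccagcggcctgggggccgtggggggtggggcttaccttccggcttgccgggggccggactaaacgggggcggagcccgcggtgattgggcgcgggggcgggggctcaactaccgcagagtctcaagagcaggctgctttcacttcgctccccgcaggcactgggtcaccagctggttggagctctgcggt
Bbc3: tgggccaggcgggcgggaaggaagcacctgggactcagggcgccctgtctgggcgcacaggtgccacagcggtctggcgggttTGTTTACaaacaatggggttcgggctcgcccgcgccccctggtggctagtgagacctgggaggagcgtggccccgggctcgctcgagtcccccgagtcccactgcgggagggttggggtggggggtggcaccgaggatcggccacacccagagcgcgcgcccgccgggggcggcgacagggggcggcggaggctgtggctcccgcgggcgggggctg
Bid: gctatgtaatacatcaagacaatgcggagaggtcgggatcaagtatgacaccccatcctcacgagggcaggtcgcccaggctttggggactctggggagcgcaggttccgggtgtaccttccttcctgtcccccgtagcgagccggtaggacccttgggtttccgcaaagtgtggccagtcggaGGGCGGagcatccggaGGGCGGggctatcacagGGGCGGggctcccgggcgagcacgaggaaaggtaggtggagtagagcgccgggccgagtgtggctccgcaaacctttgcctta

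FoxO factors are known activators of Bcl2l11 and Bbc3. A match to GTAAACA on either strand was found in 3.65% of 32851 windows of all genes, and in 2 of 15 windows of the family, 1 each of Bcl2l11 and Bbc3. Counted from the start site, it lay at -227 to -221 in the window of Bcl2l11 and, on the opposite strand, at -167 to -161 in that of Bbc3, with no overlap with the other motifs searched. The 2 genes moved in opposite directions. Of the FoxO genes listed, both picked out after their values were seen, Foxo1 fell with a log2 change of -1.30 ± 0.11 (edgeR adjusted p = 1.2e-08) and Foxo3 had mean levels of 2.33 (NPCs) and 1.83 (neurons) CPM (-0.34 ± 0.21, adjusted p = 0.16). Foxo3 passed with library size only (-0.55, adjusted p = 0.028), and its change was -0.11 without NPC replicate 1 and -0.55 without NPC replicate 2.

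The GC box was found in 35.7% of all windows and in 10 of the 15 windows of the family, those of 7 genes. Some windows of Bbc3 overlap and share GC boxes, so the matches in these windows are not separate. The window of Bid held 3, between -66 and -28 from the start site. The CCAAT box (CCAAT) was in 37.4% of all windows and in 4 of the family's, and the E-box CACGTG in 7.15% and in 2, of Bax and Bbc3. The E2F motif TTTCGCGC was in 0.323% of all windows and in 1 of Bcl2l1. The cyclic AMP response element TGACGTCA (1.79% of all windows) and a full p53 response element (0.0731%) were in none of the 15. A match is a description of letters only. Of the 10 genes, 9 had a window, and Pmaip1 was not among them.

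Genes around the family were counted in 7 lists, of which 73 genes were tested. Of these, 55 passed, 30 higher in neurons and 25 in NPCs, beside the 72.6% of all genes. The counts of each list by direction stand beside 35.8% of all genes higher in neurons and 36.9% in NPCs. Counts with library size only stand beside 3840 genes higher in neurons and 7610 in NPCs, of the 15292 tested. Among 10 other relatives of Bcl2, 4 were higher in neurons and 4 in NPCs (median log2 change 0.15). Bok, an effector-like relative, went from 31.2 ± 2.23 to 60.4 ± 0.373 CPM (SD, n = 2) and rose by 0.95 ± 0.07 on the log2 scale (edgeR adjusted p = 1.2e-09). Bcl2l12 fell from 16.0 ± 1.02 to 2.80 ± 0.0676 CPM (-2.51 ± 0.12, edgeR adjusted p = 6.9e-12). Bnip3l, known from removal of mitochondria, had a log2 change of 0.07 ± 0.06 and did not pass. Its change was 0.13 without neuron replicate 2, and it passed as higher in NPCs with library size only (-0.14, adjusted p = 0.031). Hrk, a neuronal BH3-only gene picked out after its value was seen, rose from 1.80 ± 0.130 to 3.70 ± 0.334 CPM (1.04 ± 0.18, edgeR adjusted p = 7.6e-05).

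Downstream of the mitochondrion, 3 of 8 genes of the apoptosome and caspases were higher in neurons and 3 in NPCs (median -0.04). Casp8, the caspase that cuts BID, fell from 7.43 ± 0.441 to 0.657 ± 0.00238 CPM (-3.50 ± 0.18, edgeR adjusted p = 2.6e-11), so that Bid and Casp8 moved in opposite directions. Endothelial markers fell in the same libraries (median -4.77), and their part in the change of Casp8 was not tested. Cycs, which encodes cytochrome c, was higher in neurons (0.19 ± 0.06, edgeR adjusted p = 0.0054). Its call was lost without NPC replicate 2 (0.15), and library size alone gave -0.02, the opposite sign. With library size only, 1 gene of this list was higher in neurons and 5 in NPCs.

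Of 9 caspase inhibitors and proteins released from mitochondria, 1 was higher in neurons and 5 in NPCs (median -0.23). The shares of all genes tested were 35.8% and 36.9%. Birc5, which encodes survivin and is known from dividing cells, fell from 70.4 ± 3.22 to 15.8 ± 0.915 CPM (-2.16 ± 0.07, edgeR adjusted p = 8.4e-14). Aifm1, a mitochondrial flavoprotein gene, fell from 80.4 ± 0.390 to 61.6 ± 0.912 CPM (-0.38 ± 0.06, edgeR adjusted p = 1.2e-05). Birc6 was at 107 and 109 CPM and did not pass (0.03 ± 0.06, and 0.12 without neuron replicate 1). With library size only it passed as higher in NPCs (-0.18, adjusted p = 0.014). With library size only, 0 genes of this list were higher in neurons and 8 in NPCs. The 1 gene higher in neurons became 0 without NPC replicate 1 and 2 without neuron replicate 1.

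In the p53 pathway, which can induce Bbc3, Pmaip1 and Bax, 4 of 16 genes were higher in neurons and 7 in NPCs (median -0.20). Trp53 itself fell from 269 ± 3.21 to 215 ± 13 CPM (-0.33 ± 0.06, edgeR adjusted p = 6.6e-05). Trp73, its relative, rose from 0.785 ± 0.0681 to 4.90 ± 0.188 CPM (2.64 ± 0.20, edgeR adjusted p = 2.7e-09), and Trp53inp1 rose from 146 ± 6.09 to 222 ± 9.0 CPM (0.61 ± 0.06, edgeR adjusted p = 4.5e-08). Neither Trp53 nor Trp53inp1 passed the test for a change over 1.5-fold. In this list that test was passed by 1 gene as higher in neurons and by 2 as higher in NPCs.

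Of 13 kinases, transcription factors and ubiquitin enzymes that act on the family, 7 were higher in neurons and 2 in NPCs (median 0.35). Over all genes tested the shares were 35.8% and 36.9%. Mapk8, a JNK gene whose kinase can phosphorylate BIM, rose from 42.1 ± 0.417 to 119 ± 0.0990 CPM (1.49 ± 0.06, edgeR adjusted p = 4.0e-13). Jun, the transcription factor downstream of JNK, fell from 134 ± 3.18 to 36.0 ± 2.37 CPM (-1.89 ± 0.06, edgeR adjusted p = 7.7e-14). Akt1, a kinase of BAD, was at 341 and 367 CPM and did not pass (0.10 ± 0.05, and 0.15 without neuron replicate 2). With library size only, 7 genes of this list were higher in neurons and 4 in NPCs.

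Of 6 outer membrane partners, 5 were higher in neurons and 0 in NPCs (median 0.38), beside 35.8% and 36.9% of all genes tested. None of these changes passed the 1.5-fold test. Dnm1l, the fission GTPase gene, rose by 0.66 ± 0.06 and its receptor gene Mff by 0.42 ± 0.05 on the log2 scale. The channel gene Vdac1 was at 0.29 ± 0.06, which did not pass with library size only (0.08), a scaling under which a partner was called higher in NPCs. Of 11 RNA-binding regulators of Bcl2l1 or Bak1 splicing, 6 were higher in neurons and 4 in NPCs (median 0.15), and with library size only 3 were higher in neurons and 5 in NPCs. Ptbp1 had a log2 change of -1.5 ± 0.06 and Rbfox2 one of 1.49 ± 0.06. Hnrnpa1, at -0.18 ± 0.05 (edgeR adjusted p = 0.0061), lost its call without NPC replicate 1 (-0.18) or NPC replicate 2 (-0.19).

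**Figure D5:**
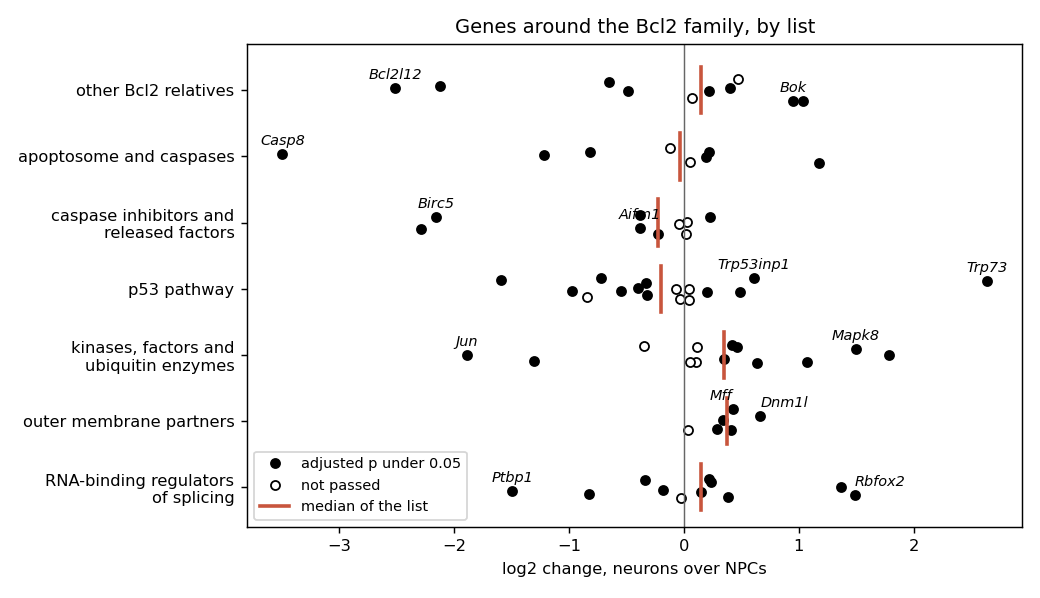
Log2 change, neurons over NPCs, of 73 genes around the Bcl2 family in 7 lists, filled where the edgeR adjusted p was under 0.05, with labels on some of the genes named in the text and a bar at each list's median. Medians lie between -0.23 and 0.38, and single genes range from Casp8 at -3.50 to Trp73 at 2.64.

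Genes most like the extremes of the family were sought among the 7957 genes whose mean level reached 20 CPM, by Euclidean distance of centred log2 CPM over the 4 libraries. Nearest to Pmaip1 were Rbm24, Tmem59l and Nfil3, at distances of 0.07, 0.07 and 0.08. Nearest to Bak1 were Erbb2ip, Mtmr10 and Efs, at 0.23, 0.23 and 0.24. With 4 libraries this measures little more than a like fold change.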

How the data were processed

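RNA-seq gene counts were analysed in 4 libraries, 2 of NPCs and 2 of neurons, grouped by their titles. The authors deposited 1 table of estimated counts per gene, not scaled between libraries. Of 65205 values tested, 100% were whole numbers of bases (within 0.01) when multiplied by a read length of 101. The tools named, per the submitters' processing notes, are TopHat 1.2.0, SAMtools 0.1.18 and CASAVA 1.9, with build mm9 and no roles. For counting tool, annotation and strand the entry is: not given in the sources used here. Of the table, 0 sample columns were left unmapped.

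Estimated counts were rounded. The filter filterByExpr kept 15292 of 23240 rows, and TMM gave factors of 1.08 and 1.07 (NPCs) and 0.928 and 0.933 (neurons). All genes kept were tested, neurons against NPCs, by the two-sided quasi-likelihood test of edgeR 4.0.16 in R 4.3.3, without pairing. P-values were adjusted by Benjamini-Hochberg and called under 0.05. Standard errors are |log2 change| over the root of F, and intervals used 15.9 degrees of freedom. Of these, 2 were the residual degrees of freedom of the gene itself. The other 13.9 were prior degrees of freedom, borrowed from the spread of all genes. The test of a change over 1.5-fold was edgeR's glmTreat, added after seeing the data. Alternatives used limma 3.58.1 and DESeq2 1.42.0. Exact intervals are Clopper-Pearson at 95% and cover counting error only. Duplicates differed by more than sampling noise (chi-square per gene of 4.57 and 14.2) and were kept as separate samples.

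The members and lists were chosen with earlier results of these data known, so list counts are descriptions, and no list was tested. Named were all members, the 2 genes of smallest p and the gene of highest mean CPM in each list (21 genes), the 2 markers of highest CPM of each other cell type and the genes nearest to the highest and the lowest called member; Hrk, Foxo1 and Foxo3 were added after their values were seen. Some genes that this rule names are not reported here. For 2 list genes, symbols were matched through RefSeq synonyms. Gene lengths are all exon bases of protein-coding transcripts in GENCODE M21 (GRCm38). Of the 15 start-site windows, 12 ended in bases found as written in a transcript of the gene. On counts simulated for 15292 genes of this comparison, the test found 24 of 50 genes set to a 1.25-fold change. It found 40 of 50 at 1.5-fold, 45 of 50 at 2-fold and 49 of 50 at 4-fold, and 11 of 169 calls (6.51%) were of unchanged genes. The simulation gave all genes the same dispersion, used NPC means in both groups and changed few genes. In the data 72.6% of genes were called, so these rates may not hold for this comparison.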

Additional observations from a re-analysis of the deposited data

How the results depend on the processing

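Alternatives were DESeq2 size factors, upper-quartile factors, library size only, the DESeq2 test, limma-voom, no filter on low counts, a filter of 5 CPM, a block for the replicate number, and leaving out each library. A test of a change over 1.5-fold and another gene length were chosen after seeing the data. Bak1 and Pmaip1 were not tested under the filter of 5 CPM. For single members, 117 values kept their direction and their side of the threshold, 5 lost a call, 1 gained one in the same direction (Bax) and 5 changed sign, of which Bad with library size only passed (adjusted p = 0.034). Bax turned to -0.0023 with upper-quartile factors and -0.11 with library size only. Bad turned to -0.066, -0.17 and -0.0020 with upper-quartile factors, library size only and the filter of 5 CPM. Leaving out 1 library gave -0.27 to -0.12 for Bcl2, -0.35 to -0.13 for Mcl1 and 0.092 to 0.12 for Bax. Such a fit has 1 library in a group, so its spread comes from the pair of the other group alone. Calls kept, lost or gained in these fits are thus no test of the main calls. In the test over 1.5-fold, Bcl2 (-0.20) and Mcl1 (-0.25) no longer passed, 2 members passed as higher in NPCs, and 5387 genes passed in all, 2268 higher in neurons and 3119 in NPCs. With library size only, 3840 genes were higher in neurons and 7610 in NPCs, against 5467 and 5641, and with upper-quartile factors 4609 and 6582.

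Among the lists, the test over 1.5-fold left 4 other relatives (2 and 2, in neurons and NPCs), 1 caspase gene in neurons, 2 inhibitors and released factors (0 and 2), 3 p53 genes (1 and 2), 5 kinases and other enzymes (3 in neurons), 0 outer membrane partners (0 in neurons) and 4 RNA-binding regulators (2 and 2). With upper-quartile factors, 1 caspase gene and 0 inhibitors were higher in neurons. With library size only, caspase genes became 1 and 5, inhibitors 0 and 8, kinases and other enzymes 4 in NPCs, outer membrane partners 1 in NPCs and RNA-binding regulators 3 in neurons. Leaving out 1 library gave 0 to 2 inhibitors higher in neurons. Single genes that changed sign were Bnip3l (-0.031 with upper-quartile factors, -0.14 with library size only, which passed), Cycs (-0.017 with library size only), Akt1 (-0.10 with library size only) and Birc6 (-0.072 with upper-quartile factors, -0.18 with library size only, which passed, -0.0083 with the filter of 5 CPM, and -0.044 to 0.12 when 1 library was left out). The cause of these changes was not tested.

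The labels give both groups the same replicate numbers, but nothing ties same-numbered libraries together, and the duplicate differences of the groups had an r of 0.07 over 7957 genes. With the replicate block, 8 members passed, 4 in each direction, as without it, and 11206 genes passed against 11108. The other gene length moved 14 of the levels per kb by more than their SD and left 6 within it.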
